A study of Homo sapiens with 102 samples.

Results

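The mitochondrial genome encodes 7 subunits of respiratory complex I, and their transcripts were followed through a small combinatorial drug screen in K562 cells, an established human line from chronic myeloid leukaemia with the BCR-ABL fusion gene. The members were the table rows whose Ensembl identifiers map to MT-ND1, MT-ND2, MT-ND3, MT-ND4, MT-ND4L, MT-ND5 and MT-ND6. These made up 7 of 24965 genes in the table and 7 of the 29 genes named MT-. The rule used gene identity and no measured value, and the family was picked for description with earlier results of these data known.

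Complex I oxidises NADH, passes the electrons to ubiquinone and pumps protons across the inner mitochondrial membrane. Its membrane arm is built around the mitochondrially encoded subunits, and nuclear genes supply the rest. Both strands of the circular genome are transcribed as long precursors that are cut at the flanking tRNAs, so that most messages share a promoter, and their final abundance depends largely on processing and turnover. MT-ND6 is the only message of the family on the opposite strand.

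In Combi-Seq, single cells are enclosed in droplets with 2 drug portions, and each portion carries a barcode fragment that labels the cells' RNA after lysis. Each library therefore pools the cells of many droplets that received the same ordered pair. The 4 substances were the solvent DMSO, imatinib (which blocks the BCR-ABL kinase), trametinib (a MEK inhibitor) and YM115, as the sample labels spell a compound that the study text calls YM155, an inhibitor of survivin expression. All 16 ordered pairs were incubated for 12 h and made 3 times, giving 48 libraries in the dT screen. In the Bio screen, also of 48 libraries, the kind of barcode primer assigned to each injection source was exchanged. A further 3 libraries per screen came from separate DMSO controls. Doses are not given in the sample labels, no library is from an untreated culture outside droplets, and all groups rest on a single cell line.

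Drug effects were tested in libraries that had a minimum of 1000 detected genes and no more than 15% MT- counts, which retained 48 dT and 44 Bio libraries. Their totals ran from 127042 to 759756 counts in dT and from 81806 to 780143 in Bio, with medians of 3528 and 1904 detected genes. MT- genes held a median of 4.46% of counts in dT and 4.81% in Bio. Of the K562 markers, the fetal globin gene HBG2 was counted in 94 of 96 in-screen libraries (median 30149.7 counts per 1000000 library counts, CPM). CD3E and MS4A1, markers of T and B cells, were counted in none. Excluded were all 3 Bio Imatinib_Imatinib libraries and the first Bio DMSO_Trametinib library. The former held 17882 to 30359 counts in total, of which MT-ND1 had 0, 11 and 25.

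The annotated 3′ ends of the 7 genes are shown because the libraries were primed on poly(A). Some of the messages also acquire their stop codon only by polyadenylation. An annotated end need not be where a poly(A) tail begins, and that of MT-ND4L lies within a message joined to MT-ND4. The last 30 bases of each annotated transcript (GENCODE 29, GRCh38) are written 5′ to 3′ on the coding strand, and capitals mark the letters of the final, in some cases incomplete, stop codon.
MT-ND1: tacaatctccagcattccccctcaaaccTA
MT-ND2: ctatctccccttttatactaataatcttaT
MT-ND3: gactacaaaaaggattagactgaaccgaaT
MT-ND4: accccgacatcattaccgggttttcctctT
MT-ND4L: gtacataacctaaacctactccaatgcTAA
MT-ND5: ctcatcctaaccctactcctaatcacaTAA
MT-ND6: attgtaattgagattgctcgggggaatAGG
MT-ND1, MT-ND2, MT-ND3 and MT-ND4 thus end in TA or T in the genome, MT-ND4L and MT-ND5 carry a whole TAA, and MT-ND6 ends in AGG. MT-ND4L and MT-ND4 are made as a joined message, and their frames overlap by the 7 bases ATGCTAA. MT-ND6 differed in composition from the rest, with 35.6% G and 7.05% C, against 9.50% to 12.1% G and 29.5% to 35.98% C in the other members.

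All members lie in single uninterrupted exons on the mitochondrial chromosome (chrM, GRCh38). MT-ND1 (ENSG00000198888) spans chrM:3307-4262 and MT-ND2 (ENSG00000198763) spans chrM:4470-5511. The genes MT-ND3 (ENSG00000198840, chrM:10059-10404), MT-ND4L (ENSG00000212907, chrM:10470-10766) and MT-ND4 (ENSG00000198886, chrM:10760-12137) follow each other downstream. MT-ND5 (ENSG00000198786) covers chrM:12337-14148, and the opposite-strand MT-ND6 (ENSG00000198695) covers chrM:14149-14673. Nuclear copies of mitochondrial DNA can share reads with the members. At a read length of 59 bases, 40.3% of the windows of MT-ND2 and 19.6% of those of MT-ND1 occurred unchanged in an annotated nuclear copy (MTND2P28 and MTND1P23). In the in-screen libraries these copies held 92 and 778 counts, against 5614 for MT-ND2 and 135165 for MT-ND1, and how shared reads were divided is not given in the sources used here.

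MT-ND1 was the most abundant member, and the levels fell into a well-counted and a sparse group. Per kilobase of transcript, mean levels in dT were 4938 CPM for MT-ND1, 1749 for MT-ND4L, 1382 for MT-ND5 and 935 for MT-ND4. MT-ND2, MT-ND6 and MT-ND3 stood at 147, 63.3 and 49.3 CPM per kilobase. In Bio the same scale gave 5563 for MT-ND1, 2282 for MT-ND4L, 1080 for MT-ND4, 983 for MT-ND5, 285 for MT-ND2, 7.33 for MT-ND3 and 5.78 for MT-ND6. The study describes a library protocol for 3′ ends, so counts need not grow with transcript length, and division by length can raise short members. Undivided, the dT means were 4720 CPM for MT-ND1, 2504 for MT-ND5, 1289 for MT-ND4 and 520 for MT-ND4L. The Bio means were 5318, 1781, 1488 and 678 CPM in that sequence. MT-ND1, which sits at the hinge of the membrane arm near the quinone site, alone supplied 50.9% of the member counts in dT and 56.6% in Bio, and 10.1% and 11.6% of all MT- counts.

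The top of the order per kilobase held within single libraries, whereas the middle did not. MT-ND1 exceeded MT-ND4L per kilobase in 47 of 48 dT and 40 of 44 Bio libraries. MT-ND4L exceeded MT-ND5 in 30 of 48 dT libraries, and MT-ND5 exceeded MT-ND4 in 35 of 48, so that these neighbours changed places often. MT-ND4 and MT-ND5 could not be ordered in Bio, where MT-ND4 was the higher in 21 of 44 libraries. The step from MT-ND4 down to MT-ND2 was present in 47 of 48 dT libraries. MT-ND6 exceeded MT-ND3 in 21 dT libraries and tied with it in 18, and MT-ND3 and MT-ND6 tied in 33 of 44 Bio libraries.

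**Figure D1:**
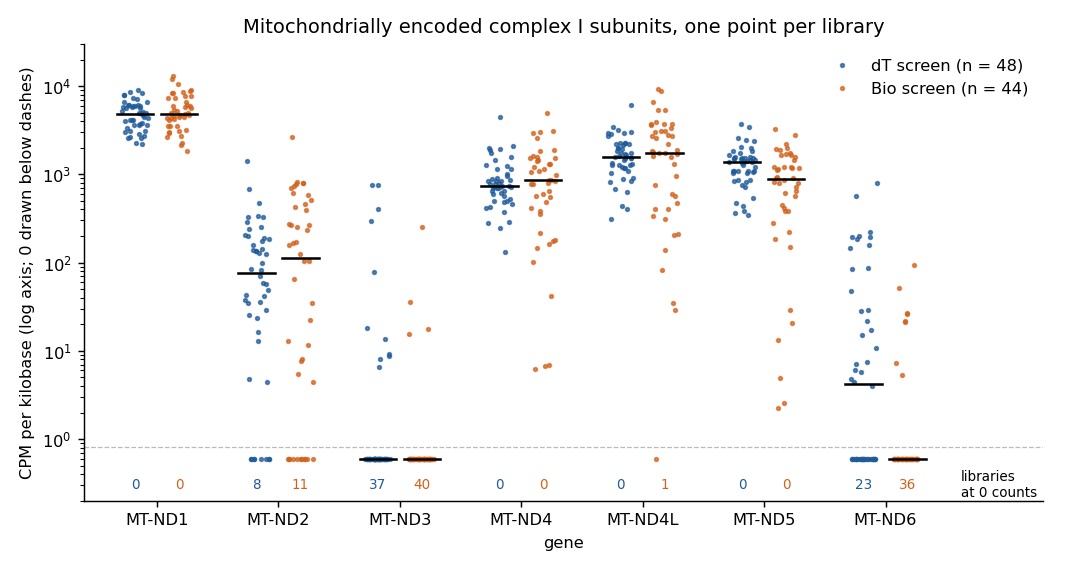
Level of each mitochondrially encoded complex I subunit in CPM per kilobase of transcript (log axis), with 1 point per passing library (48 dT, 44 Bio) and a bar at the median. Libraries with 0 counts are drawn below the dashed line, with their number printed. MT-ND1 lies highest in both screens, and MT-ND4L, MT-ND4 and MT-ND5 overlap. MT-ND3 is mostly at 0 in both screens and MT-ND6 in Bio.

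Although they share a message, MT-ND4L and MT-ND4 were not counted in a fixed ratio. MT-ND4 is a proton-pumping subunit and MT-ND4L a small neighbour in the membrane arm. Per kilobase, MT-ND4L was the higher in 35 of 48 dT libraries, and the ratio of MT-ND4L to MT-ND4 had a median of 2.27 and ran from 0.339 to 13.2. In Bio, MT-ND4L was the higher in 34 of 44 libraries, with a median ratio of 2.41 and a range of 0.0585 to 235 over the 43 libraries in which both were counted. The higher level of MT-ND4L depends on division by length. Its mean undivided CPM was below that of MT-ND4 in both screens (520 against 1289 in dT, 678 against 1488 in Bio). The correlation of their log2 CPM values, centred on each run, was -0.10 in dT (n = 48) and -0.04 in Bio (n = 44).

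MT-ND3, MT-ND6 and MT-ND2 were the sparse members. MT-ND3, a short subunit at the junction of the arms, had 0 counts in 37 of 48 dT in-screen libraries, where 3 counts would correspond to 3.95 to 23.6 CPM. In Bio it had 0 counts in 44 of 48 in-screen libraries. MT-ND6 had 0 counts in 23 of 48 dT and 40 of 48 Bio libraries, and MT-ND2 in 8 and 14. Such zeros place a level below the floor of the library and do not show absence. These floors cover counting error only. In dT the libraries with a count had a higher median total than those without for MT-ND2 (352222 against 250490), MT-ND6 (354263 against 296762) and MT-ND3 (405707 against 347290). In Bio this held for MT-ND2 (239934 against 214782) and MT-ND6 (286566 against 231438), whereas for MT-ND3 the 4 libraries with a count had the lower median total (203358 against 238673). Total counts alone did not order the zeros, since the separate Bio controls, described last, counted all 7 members at totals of 35742, 89347 and 49772.

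Spread between replicates was smallest for MT-ND1. Over the conditions of a screen, the median coefficient of variation of 3 replicates was 20.7% for MT-ND1 in dT and 29.2% in Bio. It was 39.4% and 73.8% for MT-ND4, 39.95% and 75.4% for MT-ND5, and 47.2% and 80.1% for MT-ND4L. MT-ND2, a pumping subunit of the membrane arm, reached 118% and 111%. MT-ND1 is therefore the member in which a given change was easiest to see.

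YM115 was the drug with which a member changed in both screens, and that member was MT-ND1. In the 21 dT libraries with YM115 in either position, MT-ND1 had a lowest value of 2088, a median of 3179 and a highest value of 4217 CPM. The 27 dT libraries without it ran from 3479 over a median of 5644 to 8535 CPM. The groups thus overlapped through 1 library without YM115, which lay below 10 of those with it. The means were 3197 ± 677 CPM (SD, n = 21) and 5906 ± 1265 CPM (SD, n = 27), so the level with YM115 was 54.1% of that without. In the edgeR quasi-likelihood test MT-ND1 fell by 0.80 on the log2 scale (SE 0.107), with an adjusted p of 2.10e-06. It was the 1 member called of 6 tested, while 2.62% of all 3930 tested genes were called for YM115. In these bulk libraries fewer cells and less RNA per cell cannot be told apart, and the values are shares of each library.

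The separation recurred in each run of the dT screen. In run 1 MT-ND1 had 2088 to 4129.6 CPM with YM115 and 4701 to 7484 without. The corresponding ranges were 2573 to 4217 and 5397 to 8535 CPM in run 2. These 2 runs showed no overlap. In run 3 the ranges were 2141 to 3963 and 3479 to 8035 CPM, and 2 libraries with the drug lay above the lowest without it. The level with YM115 was 54.9%, 53.2% and 54.5% of that without in the 3 runs.

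All conditions with YM115 sat at the bottom of the dT order for MT-ND1. The 7 conditions that held it took ranks 1 to 7 of 16, with means of 2636 to 3523 CPM, and the 9 others had means of 4681 to 7405 CPM. In YM115_YM115, the lowest, the replicates had 2088, 2925 and 2895 CPM. In DMSO_DMSO they had 7484, 5844 and 4447 CPM, and in Imatinib_DMSO, the highest, 5644, 8535 and 8035 CPM. Each replicate of the solvent pair thus lay above each replicate with 2 portions of YM115. The ranges of the 2 orders of YM115 and solvent overlapped, with 3800.4, 3947 and 2141 CPM in DMSO_YM115 and 2975, 3693 and 2450 CPM in YM115_DMSO.

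In the Bio screen MT-ND1 was also lower with YM115, with more overlap. The 21 libraries with the drug had a lowest value of 1763, a median of 3979 and a highest value of 8012 CPM, and the 23 without it had 2054, 5880 and 12485. The means were 4029 ± 1592 CPM (SD, n = 21) and 6495 ± 2593 CPM (SD, n = 23), or 62.0% of the level without. By run the level with YM115 was 86.0%, 55.6% and 58.0% of that without, so run 1 showed the smallest difference. MT-ND1 fell by 0.63 on the log2 scale (SE 0.176) in the edgeR test, with an adjusted p of 0.0354, and MT-ND1 was again the 1 member called, of 5 tested (2.74% of all 1754 genes tested). This call was lost in 10 of 13 other ways of processing, among them leaving out the run block (adjusted p = 0.139), whereas the direction was lower in all 13. The difference between the screens in the YM115 effect on MT-ND1 was 0.29 (SE 0.212, adjusted p = 0.460, edgeR), and no member was called for a difference between screens with YM115 (6.59% of genes called), imatinib (5.84%) or trametinib (4.59%). At an unadjusted p under 0.05, MT-ND6 was the 1 member for YM115 and for trametinib and 0 members were for imatinib.

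**Figure D2:**
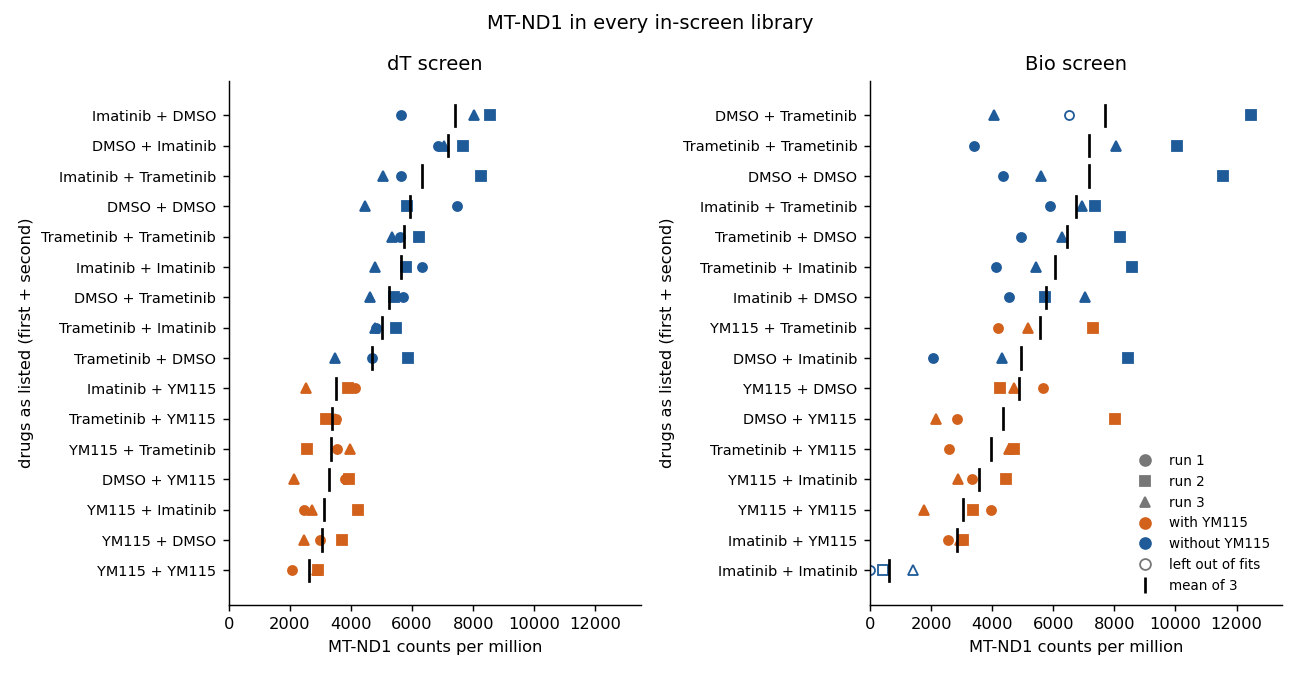
MT-ND1 in CPM for every ordered drug pair, with 1 point per library and a bar at the mean of the replicates, for the dT and Bio screens. In dT the 7 conditions with YM115 have the 7 lowest means (2636 to 3523), while in Bio their means (2855 to 5564) overlap with those of the other conditions.

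The share of all mitochondrial RNA was also lower with YM115. MT- genes held a median of 3.88% of counts in dT libraries with YM115 and 5.06% in those without, and 4.34% and 5.18% in Bio. MT-ND1 made up a median of 8.15% of MT- counts with YM115 and 11.4% without in dT, and 8.62% and 12.0% in Bio. When each library was scaled to its MT- counts, MT-ND1 in dT fell by 0.39 on the log2 scale with YM115 (SE 0.110, adjusted p = 0.0257, edgeR), and it was the 1 member called where 4.83% of genes were. That call was kept in 2 of 5 alternatives, and it was lost without the run block (adjusted p = 0.0844), without run 1 (adjusted p = 0.270) and without run 2 (adjusted p = 0.240), while the direction was lower in all 5. On that scale the median of all tested genes was 0.63. The Bio estimate within MT- counts was -0.49 (SE 0.197, adjusted p = 0.177), and 0 members were called there, against 2.85% of genes, MT-ND1 being the 1 member at an unadjusted p under 0.05.

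No other tested member was called for YM115 by edgeR, and whether their changes differed from that of MT-ND1 was not tested. The median log2 fold change of the 6 members tested with YM115 in dT was -0.46, against 0.21 for all genes tested, and in Bio it was -0.08 for 5 members against 0.53. MT-ND5, which caps the far end of the membrane arm, came closest. It had a lowest value of 705, a median of 1882 and a highest value of 4495 CPM with YM115 in dT, and 622, 2770 and 6767 CPM without. The groups overlapped over most of their range, and the difference of -0.69 on the log2 scale (SE 0.236) had an unadjusted p of 0.00526 and an adjusted p of 0.107 (edgeR). With the DESeq2 Wald test it was called (log2 fold change -0.90, adjusted p = 0.00600), as it was in edgeR without run 1 (-1.05, adjusted p = 0.0233). By run, the MT-ND5 level with YM115 was 103%, 60.6% and 42.3% of that without. In Bio its log2 fold change was -0.08 (SE 0.601, adjusted p = 0.982).

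MT-ND4, MT-ND4L, MT-ND2 and MT-ND6 were not called for YM115 in dT. The log2 fold change was -0.22 (SE 0.298) for MT-ND4, -0.00039 (SE 0.304) for MT-ND4L, 0.04 (SE 0.876) for MT-ND2 and -0.92 (SE 1.58) for MT-ND6. In Bio the estimates were -0.18 (SE 0.559) for MT-ND4, -0.03 (SE 0.705) for MT-ND4L and 0.83 (SE 1.29) for MT-ND2. In dT the errors of MT-ND2 and MT-ND6 were wider than the whole change of MT-ND1, and in Bio the errors of all other tested members (0.559 to 1.29) were close to or above the MT-ND1 change, so a change of that size would not have been detectable in them. The dT errors of MT-ND4 and MT-ND4L were also above that of MT-ND5 (0.236), whose change of -0.69 was not called by edgeR. Their missing calls alone therefore do not show that a change like that of MT-ND1 was absent. For MT-ND4L in dT the estimate of -0.00039 (SE 0.304) was itself well short of the -0.80 of MT-ND1, and the difference was not tested. MT-ND3 was too sparse to be tested in either screen. It was counted in 3 of 21 dT libraries with YM115 and in 8 of 27 without.

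**Figure D3:**
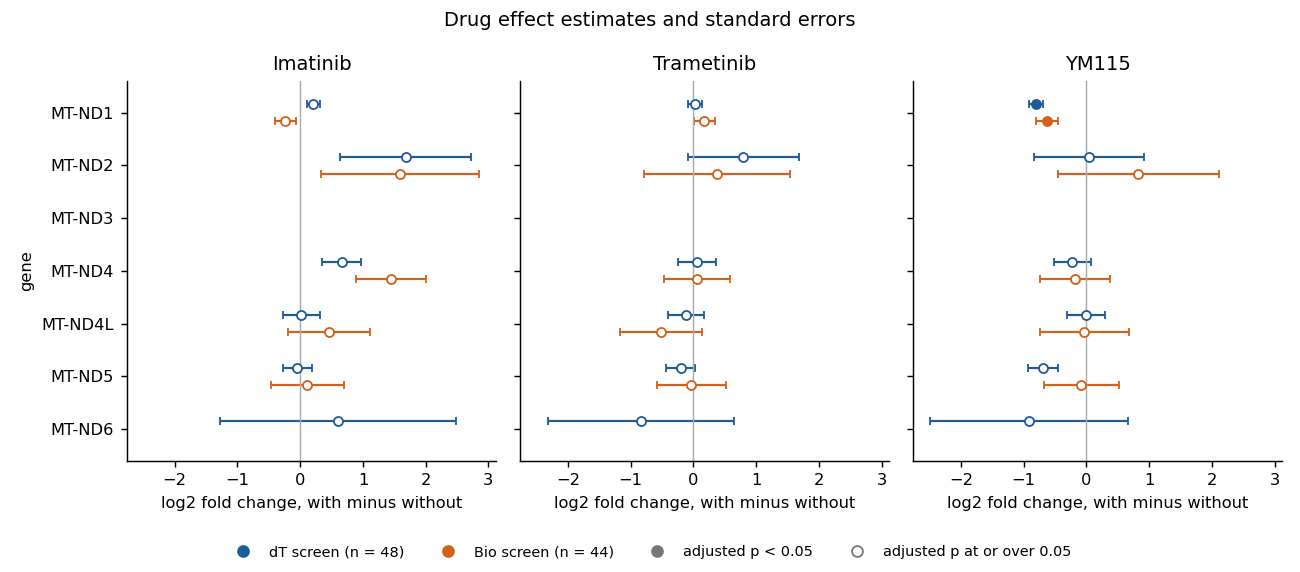
Log2 fold change (with minus without the drug, edgeR) of each tested member for imatinib, trametinib and YM115, with points for the estimate, bars for 1 standard error, and filled points for an adjusted p under 0.05. MT-ND1 with YM115 is the filled point of each screen (-0.80 in dT, -0.63 in Bio), and the bars of MT-ND2 and MT-ND6 are the widest.

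With imatinib, MT-ND4 had the largest estimate of the well-counted members, and it did not pass the test. Its 21 dT libraries with imatinib ran from 391 over a median of 1182 to 6211 CPM, and the 27 without ran from 181 over 998 to 2717 CPM. In Bio the median was 1864 CPM with imatinib (n = 18) and 840.2 without (n = 26), and the ranges again overlapped. The log2 fold change was 0.66 in dT (SE 0.312, adjusted p = 0.316) and 1.45 in Bio (SE 0.563, adjusted p = 0.177, edgeR). With imatinib 0 members were called by edgeR, against 2.88% of all genes in dT and 2.34% in Bio, MT-ND4 being the 1 member at an unadjusted p under 0.05 in each screen. DESeq2 called 0 members in dT and 1 in Bio. A single condition, picked out after its values were seen, stood out in both screens. MT-ND4 in Imatinib_DMSO had 2879.7, 2578 and 6211 CPM in dT and 3579.6, 6758 and 4062 CPM in Bio, the highest condition mean of each screen (3889 and 4799.6 CPM). In DMSO_DMSO the values were 1003, 820.1 and 585 CPM in dT and 200, 896 and 1516 CPM in Bio, so that no replicate of the pairs overlapped in either screen.

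In the reverse order, DMSO_Imatinib, MT-ND4 had 992, 1999 and 901 CPM in dT and 8.58, 2117 and 1932 CPM in Bio, all below the lowest Imatinib_DMSO library of the screen. A joint test over the 3 drugs asked whether a gene's level differed between a drug listed first and the same drug listed second. It called MT-ND4 in dT (adjusted p = 0.0253, edgeR), as the 1 member of 6 tested, where 10.7% of all genes were called. The first-minus-second difference was 1.62 on the log2 scale for imatinib, 0.22 for trametinib and 0.10 for YM115. The call was lost without the low-count filter, without the run block and when any run was left out. In Bio no member was called for position by edgeR, and 0 had an unadjusted p under 0.05, against 21.1% of genes called, and the imatinib difference of MT-ND4 was 0.63.

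MT-ND1 showed a different relation to imatinib on different scales. In dT it had a lowest, median and highest value of 2467, 5469 and 8535 CPM with imatinib and 2088, 3800 and 7484 CPM without. Libraries with imatinib include fewer with YM115, and with the other drugs in the model the log2 fold change was 0.21 (SE 0.109, adjusted p = 0.388, edgeR). Within MT- counts it was 0.40 (SE 0.112, adjusted p = 0.0341), and MT-ND1 made up a median of 11.9% of MT- counts with imatinib and 8.19% without. That call, of 1 member where 3.05% of genes were called, was lost under every one of its 5 alternatives, and the same scale in Bio gave 0 members, against 2.34% of genes. In Bio the estimate was -0.24 (SE 0.172, adjusted p = 0.575).

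No member was called by edgeR or DESeq2 for trametinib in either screen, and 0 had an unadjusted p under 0.05, where 1.37% of genes were called in dT and 1.94% in Bio. MT-ND1 had estimates of 0.02 (SE 0.107) in dT and 0.18 (SE 0.173) in Bio. The member median was -0.04 in dT, against 0.23 over all genes, and 0.06 in Bio, against 0.30. Scaling to MT- counts also gave 0 members, with 1.27% of genes called in dT and 2.17% in Bio.

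A second portion of the same drug and departures of drug pairs from additivity were tested over all 16 conditions in dT and 15 in Bio. No Bio Imatinib_Imatinib library was kept, so a second portion of imatinib could not be tested in Bio. For a second portion of imatinib in dT the call was MT-ND6, 1 of 7 members tested, where 1.87% of genes were called. Its 3 Imatinib_Imatinib libraries had 25.2, 83.8 and 415 CPM, and MT-ND6 was counted in 9 of 18 libraries with 1 portion. The fitted log2 fold change of 7.39 (SE 2.06, adjusted p = 0.0425, edgeR) rests on these sparse counts and was lost when any run was left out. No member was called for a second portion of trametinib (1.87% of genes) or YM115 (1.01%) in dT, nor of trametinib (1.92%) or YM115 (3.27%) in Bio, and of these MT-ND3 with trametinib in dT was the 1 with an unadjusted p under 0.05 (edgeR). No member was called for any drug pair, where 0.447%, 0.431% and 0.527% of genes were called in dT for imatinib with trametinib, imatinib with YM115 and trametinib with YM115, and 0.379%, 0.0292% and 0.525% in Bio. MT-ND6 had an unadjusted p under 0.05 for both imatinib pairs in dT, and 0 members had one in Bio. The MT-ND1 departures in dT were -0.14 (SE 0.274) for imatinib with trametinib, -0.01 (SE 0.273) for imatinib with YM115 and 0.31 (SE 0.271) for trametinib with YM115.

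Among the other mitochondrial messages, MT-CO3, a core subunit of cytochrome c oxidase, also fell with YM115 in dT (by 0.57 on the log2 scale, SE 0.0919, adjusted p = 6.79e-05, edgeR). It was 1 of 5 tested mRNAs outside complex I, and 0 of these were called in Bio. Both mitochondrial rRNAs were tested in each screen, and 0 were called for YM115. Within MT- counts the call for YM115 in dT was instead MT-CO1, also of cytochrome c oxidase, which was higher (log2 fold change 0.27, SE 0.0703, adjusted p = 0.0169, edgeR). With imatinib in dT, MT-CO1 and MT-CO2, a further subunit of that enzyme, fell by 0.32 and 0.77, and the large rRNA MT-RNR2 fell by 0.84 (adjusted p = 0.0436, 0.0492 and 0.0160, edgeR), and none of the 3 was called within MT- counts.

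At the library scale the share of nuclear complex I genes called for YM115 in dT was near that of all genes. Within MT- counts it was higher there. Of 37 nuclear-encoded subunits, 27 could be tested in dT, and with YM115, where 2.62% of all genes were called, the 1 call was NDUFS1, the largest iron-sulfur subunit of the matrix arm, which was lower (fitted log2 fold change -5.58, SE 1.34, adjusted p = 0.0110, edgeR). The median of the 27 was 0.54, against 0.21 over all genes and -0.46 over the mitochondrially encoded members. In Bio 0 of 17 tested were called, with a median of 0.52, against 2.74% of all genes. Within MT- counts in dT, where 4.83% of genes were called for YM115, the calls were 4 of 27. NDUFA11, NDUFA13 and NDUFB10, accessory subunits, were higher (log2 fold changes 1.44, 1.14 and 1.03), beside an all-gene median of 0.63 on that scale. NDUFS1 was lower (-5.23), and in Bio 0 nuclear subunits were called. No nuclear subunit was called for imatinib or trametinib in either screen at the library scale, and within MT- counts the 1 call was NDUFAB1, the acyl carrier protein subunit, higher with imatinib in dT. Of the complex I assembly factors, 5 were tested in dT with 0 calls for any drug, and of 2 tested in Bio, ECSIT was lower with imatinib (log2 fold change -5.93, adjusted p = 0.0408, edgeR). Of 31 genes for mitochondrial transcription, RNA processing and decay, 9 were tested in dT and 4 in Bio, and 0 were called for any drug at the library scale, where 1.37% to 2.88% of all genes were. Within MT- counts 2 of the 9 were higher with YM115 in dT, SLIRP, an RNA-binding partner of LRPPRC (log2 fold change 4.26), and SSBP1, the mitochondrial single-stranded DNA-binding protein (1.34), both beside an all-gene median of 0.63.

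Of the K562 markers, HBG2 rose where MT-ND1 fell. It rose with YM115 on the log2 scale, by 0.58 in the dT screen (edgeR, adjusted p = 6.14e-06) and by 0.75 in the Bio screen (edgeR, adjusted p = 0.000270). The summed level of the 13 erythroid markers ran from 30852 to 86569.9 CPM with YM115 in dT (median 44960.1) and from 13145 to 58781 without (median 31557). In dT HBG2 was the 1 call among 10 tested markers, and in Bio ALAS2, the erythroid enzyme of haem synthesis, was lower (log2 fold change -6.06, adjusted p = 0.0340) and HBG2 higher among 7 tested. The median log2 fold change of the tested markers was 0.77 in dT and -0.37 in Bio, so the list did not move in 1 direction. Markers of other cell types had a median summed level of 0 CPM in libraries with and without YM115 in both screens. The part of the globin change in the MT-ND1 result was not tested.

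The separate DMSO controls differed widely among themselves. All 7 members were counted in all 6 of these libraries, including MT-ND3 and MT-ND6. MT-ND1 had 3188, 23080.1 and 1155 CPM in the dT controls and 3189.5, 17068 and 30659.8 CPM in the Bio controls. The lowest dT control was thus below every in-screen library and the highest above every one. In the test of separate against in-screen DMSO_DMSO libraries the log2 fold change of MT-ND1 was 1.03 in dT (SE 0.484, adjusted p = 0.319) and 1.59 in Bio (SE 1.01, adjusted p = 0.225, edgeR). No member was called, of 7 tested in dT and 6 in Bio, where 0.0723% and 0.0432% of genes were called. Before adjustment, 4 members in dT and 3 in Bio passed 0.05 in the edgeR test. After it, these members shared an adjusted p of 0.319 in dT and of 0.214 in Bio. The share of all genes that passed before adjustment is not given here, so these member counts do not set the family apart from other genes. The member medians were 2.18 and 3.45, below the 3.30 and 5.64 of all genes tested.

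The composition of mitochondrial counts also differed in these controls. MT- genes held 10.2%, 31.0% and 36.9% of counts in the dT controls, in ascending order, and 5.10%, 24.99% and 28.1% in Bio. In 1 dT control the rRNAs made up 97.1% of MT- counts, and MT-RNR2 was higher than in the in-screen solvent libraries (log2 fold change 5.66, SE 0.796, adjusted p = 1.46e-05, edgeR). MT-ND1 made up 0.313% to 7.43% of MT- counts in the dT controls, against 6.06% to 12.9% in the in-screen DMSO_DMSO libraries. With 7410 to 10361 detected genes in dT and 5501 to 7058 in Bio, these controls also detected more genes than any in-screen library of their screen.

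**Figure D4:**
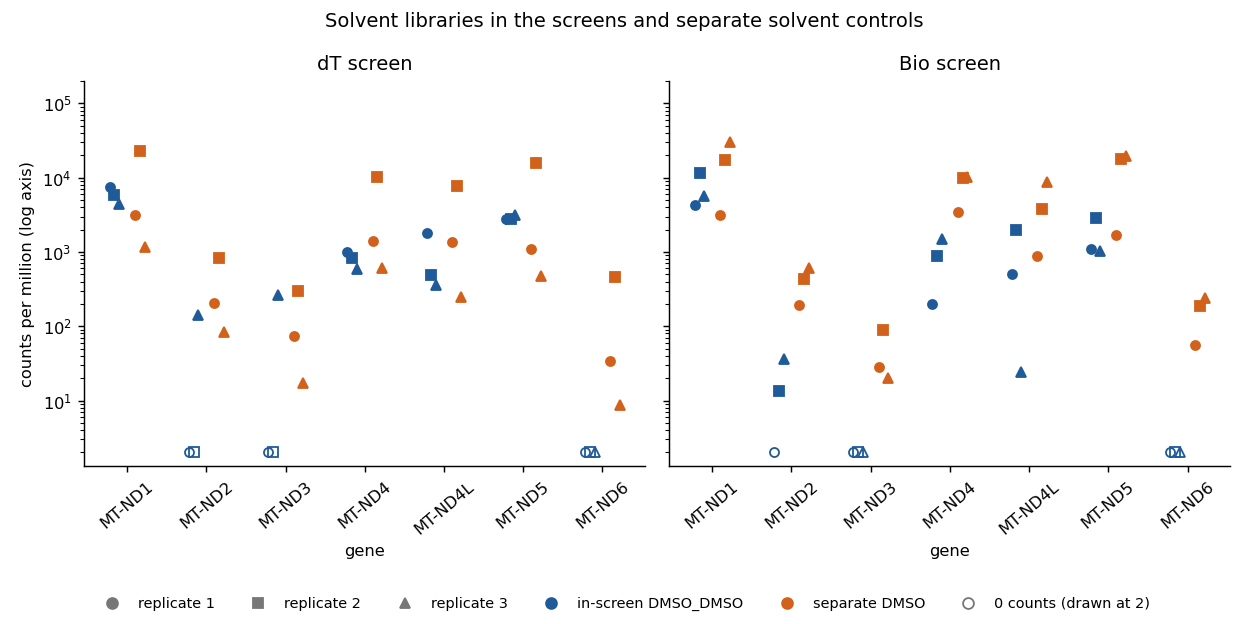
CPM (log axis) of each member in the in-screen DMSO_DMSO libraries and in the separate DMSO controls of both screens, with 1 point per library, the symbol giving the replicate, and open points for 0 counts. MT-ND1 spans 1155 to 23080.1 in the separate dT controls and 4447 to 7484 in the in-screen solvent libraries.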

How the data were processed

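The deposited table held whole-number counts per gene for 102 libraries, made by the authors from reads sorted by drug barcode and not normalised. The submitters' processing notes name STAR 2.4.2a and GRCh38. The annotation and the strand setting of the counting are not given in the sources used here, so counts of MT-ND6 and of genes on the opposite strand may be mixed. No row lacked a gene, and no 2 replicates were identical. Ensembl identifiers were matched to symbols for 24539 of 24965 genes.

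CPM used the total of each library, and transcript lengths and sequences came from GENCODE 29. Drug effects were tested with edgeR 4.0.16 in R 4.3.3 (filterByExpr, TMM, quasi-likelihood F-test), with run as a block and 1 term for the presence of each drug in either position, in each screen alone. P-values were adjusted by the Benjamini-Hochberg method over all genes tested, and genes with an adjusted p under 0.05 were called. Interaction terms tested screens and drug pairs, and other terms tested position and second portions. Separate controls were compared over all 51 libraries of a screen (17 groups, no block), which share 1 estimate of the spread. The libraries of a group come from repeats of the whole procedure with cells of 1 line, so p-values measure the spread between these repeats only.

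The study describes separate repeats of the whole procedure, which is where the pairing by replicate number comes from. The mean correlation of deviations from the condition means was 0.0243 within runs in dT and 0.0280 in Bio, so over all genes the data show little of it. Single members still differed by run in Bio. Mean MT-ND1 was 3895, 7170 and 4795 CPM in Bio runs 1 to 3, and mean MT-ND5 was 787, 2940 and 1549 CPM. In dT the MT-ND1 means were 4705, 5220 and 4237 CPM. Alternatives included DESeq2 1.42.0, other scalings and filters, and leaving out each run. The code was tested on simulated counts for YM115. With each gene's own spread, 4% of 100 genes changed by 1 log2 unit and 9% of 100 changed by 2 were called in dT. In Bio these shares were 2% and 8%. False calls numbered 36 of 3730 unchanged genes in dT and 19 of 1554 in Bio. They lay mainly among genes counted in few libraries, so single calls of sparse genes are uncertain. With the spread of MT-ND1 for every gene, 90% and 64% of genes changed by 1 unit were called in dT and Bio.

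Each comparison took in all 7 members where counts sufficed for a test, and single values are given for some of them. Of fixed lists (other mitochondrial mRNAs, mitochondrial rRNAs, nuclear complex I subunits, assembly factors, mitochondrial RNA machinery, erythroid markers, markers of other cells), counts are given with up to 5 called genes. The members and lists were chosen with earlier results of these data known. For each well-counted member the 3 genes with the highest correlation in dT were found, among genes counted in at least 90% of libraries (log2 CPM, prior count 2).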

Additional observations from a re-analysis of the deposited data

How the results depend on the processing

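MT-ND3 and MT-ND6 were at 0 counts in many libraries of this depth, though counted in every separate Bio control (totals 35742 to 89347), and MT-ND2 varied too much between replicates to show a change like that of MT-ND1. The fall of MT-ND1 with YM115 in dT ran from -1.002 to -0.64 over 12 alternatives and was called in 10. The exceptions were no filter on low counts (adjusted p = 0.109) and solvent and single-drug conditions only (adjusted p = 0.0986), which left 0 members called. In Bio it ran from -0.90 to -0.34 over 13 alternatives and was called in 3, DESeq2, its size factors in edgeR, and without run 1. There 0 members were called with TMM over genes not named MT-, no filter, a filter at 50% of libraries, the number of portions, solvent and single-drug conditions only, log2 depth as a covariate and all 48 libraries, and 0 to 1 when leaving out a run. The causes were not tested. For YM115, the size factors of DESeq2 changed the all-gene median from 0.21 to 0.02 in dT and from 0.53 to 0.22 in Bio, and the distance of MT-ND1 from that median was -1.02 under both scalings in dT and -1.15 and -1.12 in Bio. All-gene calls for YM115 in dT split into 60 higher and 43 lower, and into 52 and 62 with those size factors.

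Without the replicate block, 0 members were called for YM115 in Bio (adjusted p of MT-ND1 0.139), for YM115 and imatinib within MT- counts in dT, for position in dT and for the second portion of imatinib in dT, and the other counts of called members did not change. No filter also left 0 calls for position and for the second portion, and leaving out a run gave 0 for both in every case. Within MT- counts in dT, leaving out a run gave 0 to 1 members for YM115 and 0 for imatinib, and scaling to the 13 mitochondrial mRNAs gave 0 for imatinib. More members were called for YM115 in dT by DESeq2 and by its size factors in edgeR (2 each, MT-ND5 being the second), and leaving out a run gave 1 to 2. The number of portions gave 1 for imatinib in dT, DESeq2 gave 1 for imatinib in Bio, and leaving out a run gave 0 to 1 for trametinib between screens.

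Signs changed in 139 of 1152 member estimates, of which 0 were called in either fit. The trametinib estimate of MT-ND1 in dT became -0.0021 without the replicate block, -0.053 with DESeq2, -0.052 with its size factors, -0.076 with single drugs only and -0.040 to 0.059 leaving out a run. The YM115 estimate of MT-ND5 in Bio became 0.069 with TMM over genes not named MT-, 0.099 without a filter, 0.25 with portions, 0.33 with single drugs only and -0.30 to 0.21 leaving out a run. Leaving out a run moved the imatinib estimate of MT-ND1 in Bio to between -0.23 and 0.0041, and to between -0.38 and 0.0089 within MT- counts. The difference of MT-ND1 between separate and in-screen solvent in dT was -1.12 without replicate 2 and up to 1.65 without another. Over all genes, calls for YM115 in dT ranged from 4 to 503 around 103, for imatinib from 2 to 510 around 113 and for trametinib from 0 to 468 around 54, and in Bio from 0 to 203, 0 to 218 and 0 to 182 around 48, 41 and 34. Position calls ranged from 167 to 1432 around 420 in dT and from 8 to 485 around 445 in Bio. Within MT- counts they ranged from 10 to 184 in dT and 6 to 51 in Bio, between screens from 94 to 365, for second portions from 2 to 143, for drug pairs from 0 to 55 and for separate controls from 0 to 12.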

Other observations

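Across the dT libraries, the genes whose run-centred log2 CPM most resembled MT-ND1 were the ribosomal protein gene RPL12 (Pearson r = 0.57), MT-CO3 (0.57) and CIZ1 (0.57), among 554 candidates and over 48 libraries. The same correlations in the 44 Bio libraries were -0.18, 0.11 and 0.18. For MT-ND4 the nearest named gene was ANXA11 (0.45 in dT, -0.03 in Bio), for MT-ND4L it was TPT1 (0.54 and -0.13), and for MT-ND5 it was RPS3AP26 (0.55 and 0.12). All points of a screen share depth and composition effects, and none of these likenesses recurred at a similar size in the other screen.

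Among the members, the highest correlation in dT was that of MT-ND1 with MT-ND5 (0.39, n = 48), which was -0.10 in Bio (n = 44), and MT-ND1 with MT-ND4 gave 0.33 and 0.29. Libraries of the same run that differed only by YM115 in place of DMSO in 1 position were also compared. MT-ND1 was lower after this exchange in 21 of 24 such comparisons in dT and in 19 of 23 in Bio. MT-ND5 was lower in 19 of 24 and 11 of 23. Some comparisons set YM115_YM115 against DMSO_YM115 or YM115_DMSO, so both libraries held YM115. For MT-ND1 in dT, YM115_YM115 was the lower of these in runs 1 and 2. In run 3 it was the higher (2895 against 2141 and 2450 CPM). Libraries recur among these comparisons, so they are not independent.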
